A study of Mus musculus with 9 samples.

Results

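The data describe 158 long noncoding RNAs (lncRNAs) measured in cells of the mouse Lewis lung carcinoma line (LLC) with and without CD47, the surface protein that inhibits phagocytosis. They were chosen by their mean level: autosomal genes typed as lncRNA whose counts scaled to the library total (CPM, counts per 1e+06 counts) averaged at least 5 over the 9 libraries, leaving out 7 lncRNAs of imprinted regions by name (H19, Meg3, Rian, Mirg, Airn, Kcnq1ot1 and Peg13). Of 10994 autosomal lncRNA genes listed, among 50813 genes in all, 160 reached that level and 158 remained without Airn and Peg13. The mean over all 9 libraries chose them, without regard to the line, and all 158 passed the filter on low counts. In 26 of them at least 1 line averaged below 5 CPM, so that their membership rested on the lines where they were higher. WT cells, CD47 KO clone E3 and CD47 KO clone E5 were each sequenced as 3 libraries of polyadenylated RNA from separate replicates. The KO clones were derived with Cas9 ribonucleoproteins directed at Cd47 and grown from single cells, and each KO line is 1 clone, so that the loss of CD47 and the clone cannot be told apart. All 3 lines were grown in culture in the same medium, DMEM with serum, and p-values measure the spread between cultures of a line.

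lncRNAs are transcribed, spliced and often polyadenylated as mRNAs are, but do not encode a known protein. Some act as RNA molecules, such as Neat1, the scaffold of nuclear paraspeckles. Others are hosts, whose introns are processed into small nucleolar RNAs (snoRNAs), which guide the modification of ribosomal RNA, or into miRNA precursors, and for many the act of transcription beside a coding gene is the only property known.

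Total counts per library were 44257404 to 55095219, of which the 158 lncRNAs took 0.561% to 0.640%. Cd47, the targeted gene, was measured at 187, 179 and 182 CPM in the WT libraries, 47.4, 36.8 and 49.6 in clone E3 and 15.5, 18.6 and 18.1 in clone E5, and no KO library reached the lowest WT value. Its log2 fold change was -2.03 in E3 and -3.39 in E5 (adjusted p = 4.9e-06 and 1.07e-07, from the quasi-likelihood test of edgeR adjusted by Benjamini-Hochberg, as for each adjusted p below). Replicate 3 of clone E3 stood apart from its replicates, with 189 and 229 as the chi-square over its degrees of freedom when its counts were set against theirs, where other replicate pairs gave at most 38.8. Leaving it out changed the test results of many lncRNAs, and counts without it stand beside the main counts. Of the epithelial markers, Epcam was at 0 counts in every library and Cdh1, Krt7 and Krt19 below 1 CPM, while Krt8 (191 CPM in WT, 39.03 in E3 and 362 in E5) and Krt18 (264, 128 and 545) were present and differed between the lines. The lung lineage markers Nkx2-1, Sftpc and Sftpb were at 0 and Napsa at 0.272 CPM or less. Of the mesenchymal markers, Vim was at 4112 CPM or more and Fn1 at 572 or more, Cdh2 at 19.7 to 33.5 and Col1a1 at 0.358 to 4.13. The part of these differences in the results below was not tested. Levels below are CPM scaled by the TMM method, and error terms are SDs over 3 libraries or standard errors (SE) of the log2 fold change. In bulk RNA, fewer cells that express a gene and less RNA per cell cannot be told apart.

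The 158 lncRNAs lay on 19 autosomes and ranged from 5.01 to 1077 CPM, with a median of 10.5. Of these, 76 were below 10 CPM and 10 were at 100 CPM or more. D17H6S56E-5 was the highest, followed by Neat1, AI506816, Norad and Gas5. Per kilobase of the canonical transcript in GENCODE M39, Gas5 came first at 423 CPM per kilobase, ahead of AI506816 at 386 and D17H6S56E-5 at 187. AU020206 (135) and the snoRNA host Zfas1 (124) followed. Neat1, with a canonical transcript of 22397 bases, was at 28.4, below Pvt1 at 49.7 and Norad at 57.7. This order is approximate, because only 28 of 157 lncRNAs had the same span in GENCODE M39 as in the counts. The canonical length exceeded the counted span in D17H6S56E-5 (5751 against 3740 bases), Neat1 (22397 against 21163) and Gm10076 (1096 against 407), among others. D17H6S56E-5 is typed as protein coding in GENCODE M39, as is ENSMUSG00000121808, found from the annotation. The remaining 155 of 157 are typed as lncRNA there. Both D17H6S56E-5 and Norad share a stretch of at least 200 bases at 98% identity or more with another gene. The counts of these 2 may thus include reads from a copy. In all, 17 of 157 lncRNAs that could be compared shared such a stretch. The genes just inside the threshold were Gm1976 (5.01 CPM), Gm14221 (5.02) and ENSMUSG00000121500 (5.03), and those just outside were Kank4os (4.98), Fam120aos (4.96) and 9230112E08Rik (4.86). In 132 of the 158 the mean was at least 5 CPM in each of the 3 lines. Among these 132, 5 lncRNAs were called in E3, 3 in E5 and 6 between the clones.

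**Figure D1:**
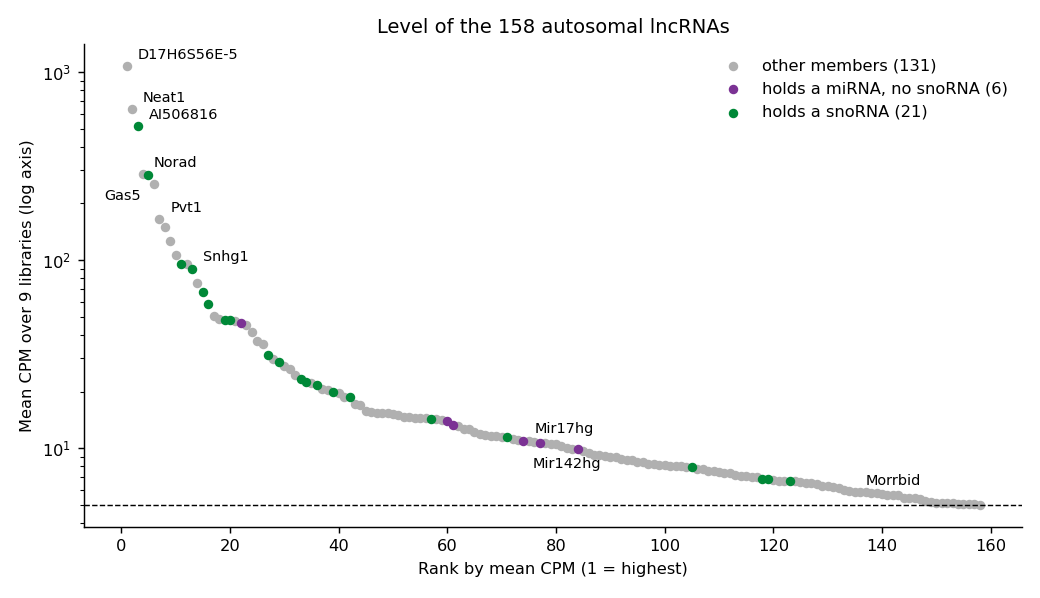
Mean CPM over the 9 libraries (log axis) of the 158 lncRNAs, ordered by rank, with 1 point per gene. Green points are the 21 genes whose span holds a snoRNA, purple points the 6 that hold a miRNA and no snoRNA, and the dashed line is the threshold of 5 CPM. Hosts of snoRNAs are found from AI506816, which only D17H6S56E-5 and Neat1 exceed, down to 2700038G22Rik at 6.70 CPM.

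By position in the annotation, 30 of 157 lncRNAs started within 2000 bases of the start of a coding gene on the other strand (divergent). Of the rest, 44 overlapped a coding gene on the other strand (antisense). A further 10 overlapped one on their own strand only (sense), and 73 did neither (intergenic). Each lncRNA was placed in the first class that applied, so a divergent lncRNA may also overlap a coding gene. 1 lncRNA, B930095G15Rik, was not in the annotation used for this. The strand setting of the authors' read counter is not given in the sources used here, so counts of the 76 lncRNAs that overlap a gene on the other strand and the 36 that overlap one on their own strand may hold reads of that gene. 64 overlapped no other gene. Canonical transcripts had a median of 1481 bases and 3 exons.

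Most of the 158 lncRNAs differed little between the lines. A lncRNA was called when its FDR was under 0.05 and its absolute log2 fold change above 1, and is said to have risen or fallen when its FDR was under 0.05. In clone E3 against WT, 5 lncRNAs were called higher (3.16%) and 4 lower (2.53%), beside 5.43% and 4.39% of the 14593 genes tested. In clone E5 against WT, 3 were called higher (1.90%) and 2 lower (1.27%), beside 2.69% and 5.52%. In clone E5 against clone E3, 5 were called higher (3.16%) and 3 lower (1.90%), beside 3.49% and 7.52%. At an FDR under 0.05 alone, 22 rose and 27 fell in E3 (13.9% and 17.1%), beside 15.7% and 14.7% of all genes. In E5, 14 rose and 21 fell (8.86% and 13.3%), beside 8.96% and 11.7%, and between the clones 20 were higher in E5 and 22 lower (12.7% and 13.9%), beside 14.7% and 17.2%. The shares of lncRNAs past the FDR alone lay near those of all genes, and each share called was below it.

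The median log2 fold change of the 158 was -0.01 in E3, -0.08 in E5 and -0.03 between the clones, against 0.01, 0.00 and -0.01 over all genes tested. The median absolute log2 fold change was 0.32, 0.28 and 0.29, against 0.31, 0.25 and 0.32 over all genes. With upper-quartile scaling, 29 rose and 23 fell in E3, and 15 were higher and 29 lower in E5 than in E3, so that the split between directions depends on the scaling. Without replicate 3 of clone E3, 32 rose and 44 fell in E3, 33 rose and 40 fell in E5, and between the clones 39 were higher in E5 and 29 lower. The numbers called were then 1 higher and 7 lower in E3, 3 and 2 in E5, and 3 and 2 between the clones.

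**Figure D2:**
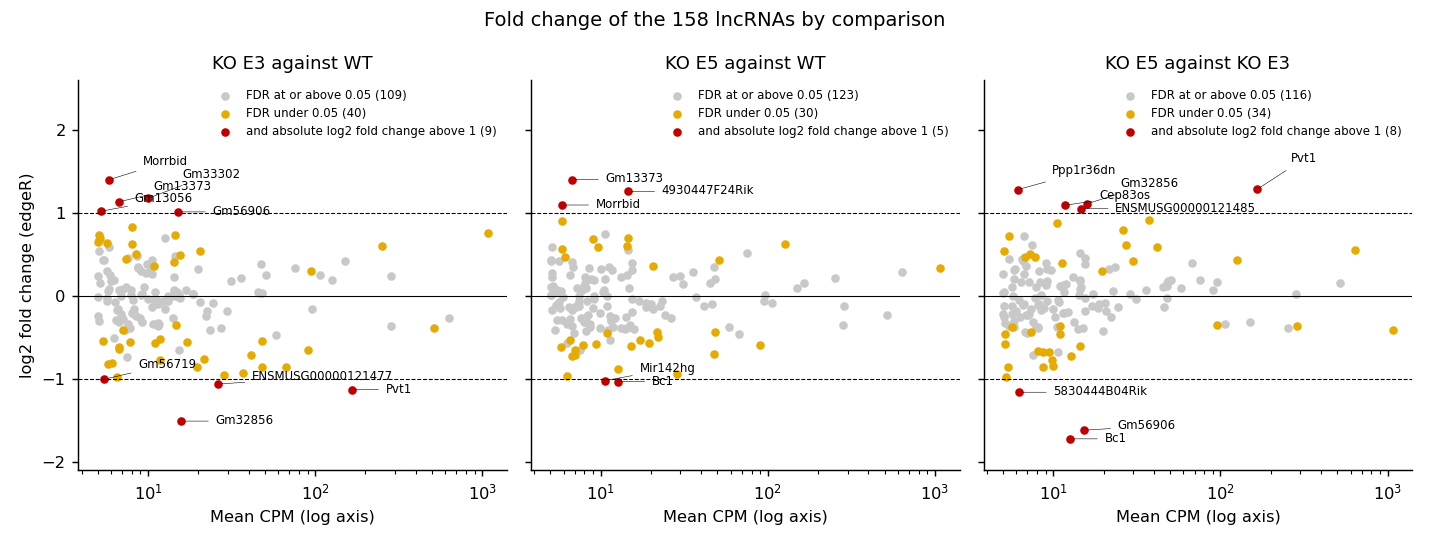
Log2 fold change from edgeR against mean CPM (log axis) of the 158 lncRNAs in each of the 3 comparisons, with 1 point per gene. Yellow points passed an FDR of 0.05, red points also exceeded an absolute log2 fold change of 1 (dashed lines): 9 in KO E3, 5 in KO E5 and 8 between the clones, most of them below 30 CPM, with Pvt1 the exception.

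Morrbid and Gm13373 were called higher in each clone against WT, in comparisons that use the same WT libraries. Both averaged below 5 CPM in WT and were among the 158 only through the KO lines, where they were higher, so the choice by mean level favoured genes of this pattern. Morrbid (chromosome 2 from 128020239 to 128344685, minus strand, GRCm39) is a lncRNA known for prolonging the life of short-lived myeloid cells by restraining its neighbour Bcl2l11, which encodes the pro-apoptotic protein Bim. It was at 3.17, 3.18 and 2.77 CPM in WT, 7.56, 8.56 and 7.87 in E3 and 6.94, 6.46 and 6.03 in E5. The lowest KO library was thus above the highest WT library, and the E3 libraries were all above the E5 libraries. The log2 fold change was 1.40 in E3 (SE 0.13, adjusted p = 4.19e-05) and 1.09 in E5 (SE 0.13, adjusted p = 0.000171), and -0.30 between the clones (adjusted p = 0.0784). Both calls held without any 1 library.

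Bcl2l11 itself, looked up after the values of Morrbid were seen, was at 51.2 ± 4.15 CPM in WT, 49.5 ± 6.55 in E3 and 46.9 ± 4.97 in E5 (SD, n = 3). Its log2 fold change was -0.05 in E3 and -0.13 in E5 (adjusted p = 0.795 and 0.531), and its libraries overlapped between the lines. Morrbid is intergenic in the annotation, overlaps 3 genes on the other strand, and its nearest coding start, that of Spdye4c, lies 88444 bases away.

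Gm13373 (chromosome 2 from 28205019 to 28215489) is an intergenic lncRNA with no described function. It was at 3.43, 3.45 and 3.48 CPM in WT, a spread narrower than in either clone, at 7.50, 6.13 and 9.06 in E3 and at 8.68, 9.0 and 9.56 in E5. Its values rose by 1.13 on the log2 scale in E3 (SE 0.15, adjusted p = 0.000401) and by 1.39 in E5 (SE 0.15, adjusted p = 0.000107). Without replicate 3 of clone E3 the value in E3 was 0.98, below the threshold of size (adjusted p = 5.99e-05).

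The reference sequence before a RefSeq start of Morrbid is shown. Its window holds letters that transcription factors of the AP-1 and ETS families are known to bind. The stretch is RefSeq sequence of the GRCm38.p6 build, chr2:128429336-128429447, minus strand, 112 bases, with CCGGAAG and TGANTCA in capitals. CCGGAAG lies from 86 to 80 bases before that start and TGANTCA across it. The coordinates of this start and of the GRCm39 span given above are of different builds and cannot be compared as printed. The distance to Spdye4c was taken from the outer end of the GRCm39 span.
Morrbid: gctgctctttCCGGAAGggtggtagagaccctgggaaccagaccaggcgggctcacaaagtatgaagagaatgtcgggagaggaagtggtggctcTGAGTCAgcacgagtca

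Searched on both strands in windows from 250 bases before to 50 after each RefSeq start, TGANTCA was in 8.97% and CCGGAAG in 9.93% of 27025 genes, so a match is a description of the letters. Of the 88 lncRNAs with a RefSeq window, 7 held TGANTCA (7.95%) and 23 held CCGGAAG (26.1%). CCAAT was in 48 of the 88 (54.5%, against 41.1% of all genes), CACGTG in 10 (11.4%, 8.09%), TATAAA in 11 (12.5%, 15.7%) and TGACGTCA in 3 (3.41%, 2.03%). The p53 decamer was in 7 (7.95%, 9.55%) and the NRF1 motif in 0 (1.07%). TGACGTCA is a palindrome, and CCGGAAG and CCAAT were the only ones of these motifs found in over 10 percentage points more lncRNAs than genes. Genes with several starts had several windows.

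Pvt1 was the highest of the called lncRNAs and set clone E3 apart from both other lines. Pvt1 (chromosome 15 from 61909817 to 62249945, plus strand) lies 52577 bases from Myc, which encodes a transcription factor that drives growth, and the pair is often amplified together in tumours. Pvt1 was at 202, 198 and 183 CPM in WT, at 93.9, 89.3 and 83.0 in E3 and at 214, 210 and 223 in E5. Its 3 E3 libraries lay at 93.9 CPM or less and all others at 183 CPM or more. The log2 fold change was -1.13 in E3 (SE 0.09, adjusted p = 2.13e-05), 0.15 in E5 (adjusted p = 0.28) and 1.28 between the clones (SE 0.09, adjusted p = 4.04e-06).

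Myc was at 541, 638 and 646 CPM in WT, 231, 182 and 239 in E3 and 658, 721 and 671 in E5. Its log2 fold changes were -1.48 in E3 (adjusted p = 3.01e-05), 0.17 in E5 (adjusted p = 0.383) and 1.65 between the clones (adjusted p = 7.07e-06). Both genes of the pair were lower in E3 than in either other line, and the 2 calls of Pvt1 held without any 1 library.

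Of the other lncRNAs called in E3 against WT, Gm32856 fell the most, from 21.9, 23.4 and 22.8 CPM in WT to 8.12, 9.91 and 5.85 in E3, with 14.1, 16.9 and 20.5 in E5, so that no libraries of the 3 lines overlapped. Its log2 fold change was -1.51 in E3 (SE 0.19, adjusted p = 0.000298), -0.41 in E5 (adjusted p = 0.153; -0.40 and 0.0193 without replicate 3 of E3) and 1.10 between the clones (adjusted p = 0.00156). The last value fell to 0.94 without replicate 3 of E3 and to 0.96 without replicate 3 of E5. ENSMUSG00000121477 fell by 1.06 on the log2 scale in E3, and by 0.94 without replicate 3 of that clone. Gm56719, which starts 395 bases from the start of Slc38a1, a glutamine transporter gene, on the other strand, had a log2 fold change of -1.01 in E3 (adjusted p = 0.00164). It was -0.93 without replicate 3 of WT and -0.85 without replicate 2 of E3. Slc38a1 fell in both clones, by 0.86 on the log2 scale in E3 and by 0.63 in E5 (adjusted p = 0.00872 and 0.0462), and the 2 genes overlap, so their reads may be shared.

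Gm33302 rose in E3, with 6.87, 6.92 and 6.06 CPM in WT against 12.7, 11.1 and 21.0 in E3, and its log2 fold change of 1.17 (adjusted p = 0.00385) was 0.85 without replicate 3 of E3. Gm13056, whose nearest coding start is that of the receptor gene Epha2, 22851 bases away, rose by 1.02 (adjusted p = 0.0158), with 0.72 without replicate 3 of E3 and 0.90 without replicate 3 of WT, where it no longer passed the FDR (adjusted p = 0.0673). Epha2 fell by 0.87 on the log2 scale in E3 (adjusted p = 0.000184). Of the 5 lncRNAs called higher in E3, only Morrbid was still called without replicate 3 of that clone, and the other 4 passed the FDR with a log2 fold change of 0.72 to 0.99.

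Bc1 and Gm56906 had the largest differences between the clones with all libraries, and without replicate 3 of E3 that of Bc1 was similar in size to those of Pvt1 and Ppp1r36dn. Gm56906 (chromosome 17 from 21695173 to 21698393), an intergenic lncRNA nearest to the zinc finger gene Zfp53, was at 14.04, 10.7 and 12.3 CPM in WT, 26.4, 22.6 and 25.5 in E3 and 8.17, 8.02 and 8.03 in E5. WT lay between the clones without overlap. It rose by 1.01 in E3 (SE 0.12, adjusted p = 0.000215), a value that was 0.91 without replicate 2 of WT, 0.96 without replicate 1 of E3 and 0.99 without its replicate 3, and fell by 0.61 in E5 (adjusted p = 0.00539). The difference of E5 from E3 was -1.62 (SE 0.12, adjusted p = 6.36e-06), and -1.59 without replicate 3 of E3.

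Bc1 is a short RNA of the neuronal cytoplasm that is transcribed by RNA polymerase III and gave rise to many dispersed copies in rodent genomes, so that reads may come from elsewhere. It was at 13.0, 11.5 and 11.9 CPM in WT and at 5.82, 6.33 and 5.64 in E5, while in E3 the libraries were at 13.5, 14.5 and 30.8, the last being replicate 3. The log2 fold change was -1.03 in E5 against WT (adjusted p = 0.0228) and -1.72 between the clones (adjusted p = 0.00101). Without replicate 3 of E3 the latter was -1.23 (adjusted p = 2.12e-06), beside 1.24 for Pvt1 and 1.18 for Ppp1r36dn. The value of E5 against WT lost its call when any 1 WT or E5 library was left out (-1.08 to -0.99, adjusted p of 0.0533 to 0.0762).

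In E5, 4930447F24Rik rose from 10.3, 7.57 and 8.04 CPM in WT to 18.6, 21.3 and 21.9, by 1.26 on the log2 scale (SE 0.19, adjusted p = 0.000904), and in E3 by 0.74 (adjusted p = 0.0131; 0.65 without replicate 2 of WT and 0.68 without its replicate 3, neither past the FDR). 5830444B04Rik was at 3.32 to 3.94 CPM in E5 and at 6.59 CPM or more in E3, a difference of -1.16 (adjusted p = 0.00072), or -0.999 without replicate 3 of E3. It overlaps Cfap74, a gene on the other strand whose difference was -1.48 (adjusted p = 0.00229), so the reads of the 2 may be shared. Ppp1r36dn was at 5.97 to 6.71 CPM in WT, 3.03 to 4.27 in E3 and 8.13 to 8.95 in E5. The groups did not overlap, and the difference between the clones was 1.28 (adjusted p = 0.000111). ENSMUSG00000121485 differed by 1.05 (adjusted p = 4.36e-05), but shares 684 bases at 98% identity or more with the coding gene Gpr137b.

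**Figure D3:**
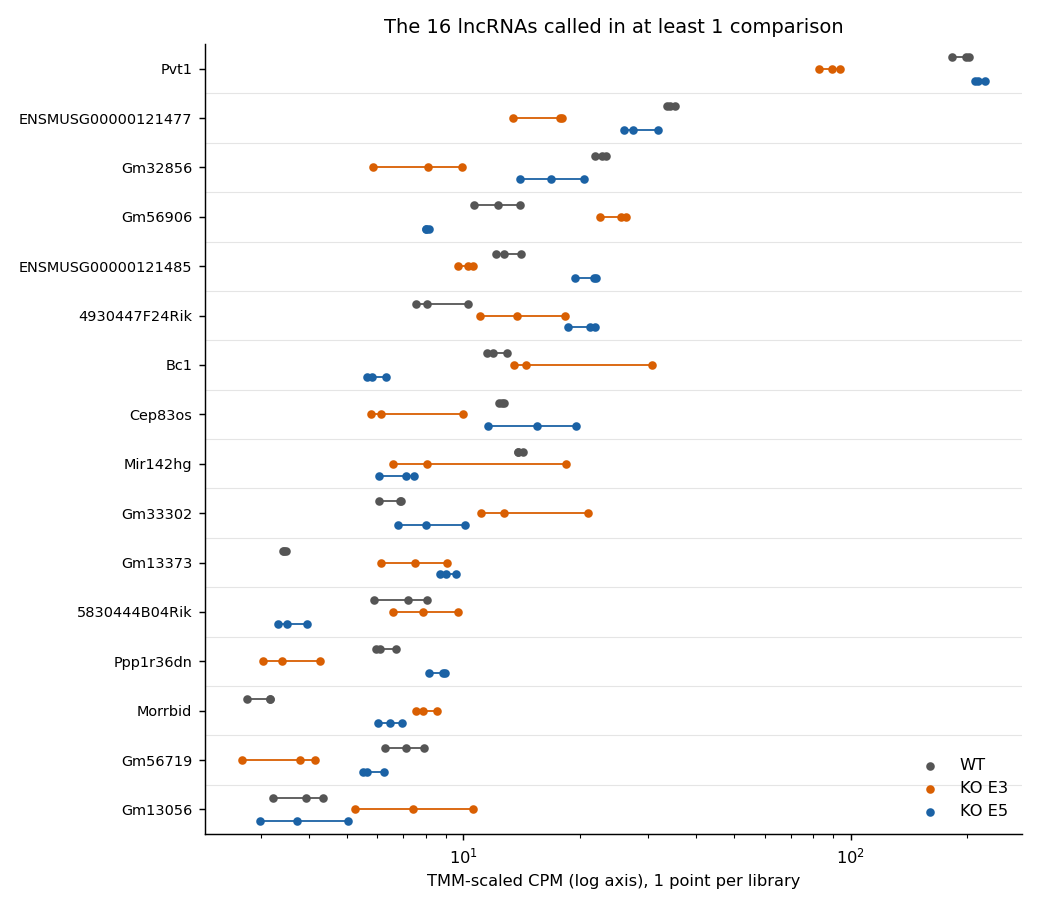
TMM-scaled CPM (log axis) in each library of the 16 lncRNAs called in at least 1 comparison, ordered by mean level. Points are libraries and lines join the lowest and highest of the 3 libraries of a line. Pvt1 is below 100 CPM only in KO E3, Morrbid and Gm13373 are higher in all 6 KO libraries, and in Bc1, Mir142hg and Gm33302 1 library of KO E3 lies far from the other 2.

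Hosts of snoRNAs fell in both clones where they passed the test, and none rose. Of a list of 21 hosts, 16 were among the 158, and 0 rose and 5 fell in E3, with a median log2 fold change of -0.35, and 0 rose and 5 fell in E5, with a median of -0.38. Of all genes tested, 15.7% rose and 14.7% fell in E3, and 8.96% rose and 11.7% fell in E5. Between the clones 0 were higher in E5 and 1, Snhg4, was lower (-0.61, adjusted p = 0.0416). Snhg4 no longer passed the FDR when any 1 WT library, replicate 3 of E3 or replicate 1 or 2 of E5 was left out. Counting instead each of the 21 lncRNAs whose span holds an annotated snoRNA on its strand, which adds AI506816, 1110038B12Rik, 2410006H16Rik, Gm36220 and 2700038G22Rik, found from the annotation, 0 rose and 8 fell in E3 and 0 rose and 6 fell in E5. The medians were -0.37 and -0.38, and 16 of 21 in E3 and 17 of 21 in E5 had a negative value. The 137 other lncRNAs had medians of 0.01 and -0.05, with 22 higher and 19 lower in E3 and 14 higher and 15 lower in E5. The comparisons of both clones use the same WT libraries and are not independent of each other.

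Snhg12, which holds Snora16a, Snora44, Snora61 and Snord99, fell the most. It was at 49.8, 38.2 and 38.7 CPM in WT, 19.4, 19.9 and 25.9 in E3 and 17.8, 20.7 and 27.5 in E5, with no KO library as high as the lowest WT library. Its log2 fold change was -0.96 in E3 (SE 0.18, adjusted p = 0.00298) and -0.94 in E5 (SE 0.18, adjusted p = 0.00452), and passed -1 in each when replicate 2 or 3 of WT was left out (-1.03 and -1.02 in E3, -1.01 and -1.01 in E5). It also did without replicate 3 of the same clone, at -1.10 in E3 and -1.13 in E5.

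Snhg5, the host of Snord50a and Snord50b, was at 65.0, 68.8 and 65.1 CPM in WT, 32.9, 31.3 and 45.7 in E3 and 37.2, 38.0 and 47.1 in E5. It fell by 0.86 on the log2 scale in E3 (SE 0.15, adjusted p = 0.00199; 1.05 without replicate 3 of E3) and by 0.70 in E5 (SE 0.15, adjusted p = 0.00824). Again the WT libraries were above all others. Snhg17 fell from 59.5 ± 1.98 CPM in WT to 40.7 ± 2.94 in E3 and 44.1 ± 2.67 in E5 (SD, n = 3), by 0.55 and 0.43 (adjusted p = 0.0016 and 0.00811; adjusted p = 0.0524 in E5 without replicate 2 of E5).

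Snhg16, the host of Snord1a, Snord1b and Snord1c, fell from 27.9 ± 0.825 CPM to 16.5 ± 3.23 in E3 and 20.6 ± 0.738 in E5 (SD, n = 3), by 0.76 (adjusted p = 0.00165) and by 0.44 (adjusted p = 0.037; 0.0789 to 0.12 when any 1 WT or E5 library was left out). Snhg1 was at 132, 120 and 101 CPM in WT, 64.6, 69.6 and 90.0 in E3 and 76.2, 67.2 and 91.2 in E5, and fell by 0.66 and 0.59 in the clones (adjusted p = 0.0112 and 0.0253). The value in E5 did not pass without replicate 1 or 2 of WT or of E5 (adjusted p of 0.0812 to 0.108).

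2700038G22Rik, the host of Snord93, fell from 8.90 ± 0.707 CPM to 5.80 ± 0.687 in E3 and 5.39 ± 0.687 in E5 (SD, n = 3), by 0.62 and 0.72 (adjusted p = 0.00812 and 0.00493). AI506816, which follows D17H6S56E-5 and Neat1 in level, was at 595 ± 17.3 CPM in WT, 454 ± 55.7 in E3 and 505 ± 15.1 in E5 (SD, n = 3). It fell by 0.39 in E3 (adjusted p = 0.0171; 0.0709 and 0.0647 without replicate 2 or 3 of WT) and had -0.24 in E5 (adjusted p = 0.138; -0.23 and 0.0182 without replicate 3 of E3), although its libraries did not overlap between WT and either clone. 2410006H16Rik, the host of Snord49a, Snord49b and Snord65, fell by 0.86 in E3 (adjusted p = 0.0416), from 70.9 to 112 CPM in WT to 31.8 to 68.9 in E3. It did not pass the FDR without replicate 1 or 2 of WT or of E3 or replicate 2 of E5 (-0.66, -0.91, -0.82, -0.63 and -0.86, adjusted p of 0.0587 to 0.149). Its size passed 1 without replicate 3 of WT or of E3 (-1.0036 and -1.19).

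Gas5 is a host of 10 annotated snoRNA genes and was the highest per kilobase of the canonical transcript. It was at 372, 322 and 303 CPM in WT, 228, 203 and 340 in E3 and 250, 246 and 286 in E5. Its log2 fold change was -0.37 in E3 and -0.35 in E5 (adjusted p = 0.142 and 0.199), and its libraries overlapped in E3 through replicate 3. Zfas1 (-0.47 and -0.38), Dancr (-0.22 and -0.45), Snhg20 (-0.33 and -0.53), Snhg6 (-0.41 and -0.07) and Snhg15 (-0.18 and -0.13) did not pass in E3 or E5, nor did Snhg7 (0.02 and -0.13), Snhg8 (0.18 and 0.14), Snhg3 (0.32 and -0.10), Snhg4 (0.22 and -0.39), Epb41l4aos (0.01 and 0.12), 1110038B12Rik (-0.16 and 0.01) and Gm36220 (-0.01 and 0.35).

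Replicate 3 of clone E3 was the highest of the 3 E3 libraries in 18 of these 21 hosts (85.7%), against 42.0% of all genes tested. Without it, 0 hosts rose and 15 fell in E3, with a median of -0.55, and 1 rose and 11 fell in E5, with a median of -0.37, while 9 were higher in E5 than in E3 and 0 lower. Those that passed in E3 only then were Gas5 (-0.63, adjusted p = 0.000375), Zfas1 (-0.79, adjusted p = 0.00238), Snhg20 (-0.68, adjusted p = 0.000953), Snhg6 (-0.64, adjusted p = 0.00388), Dancr (-0.51, adjusted p = 0.00364), 1110038B12Rik (-0.35, adjusted p = 0.00452) and Snhg15 (-0.33, adjusted p = 0.0152). In E5 they were Gas5 (-0.34, adjusted p = 0.00826), Snhg20 (-0.53, adjusted p = 0.00235), Dancr (-0.44, adjusted p = 0.00449), Snhg4 (-0.38, adjusted p = 0.0116), AI506816, and Gm36220, which rose (0.36, adjusted p = 0.0402). When each other library was left out, 6 to 8 fell in E3 and 3 to 6 in E5. How far the library decides the counts of the hosts was measured only in this way, and what sets it apart was not tested.

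**Figure D4:**
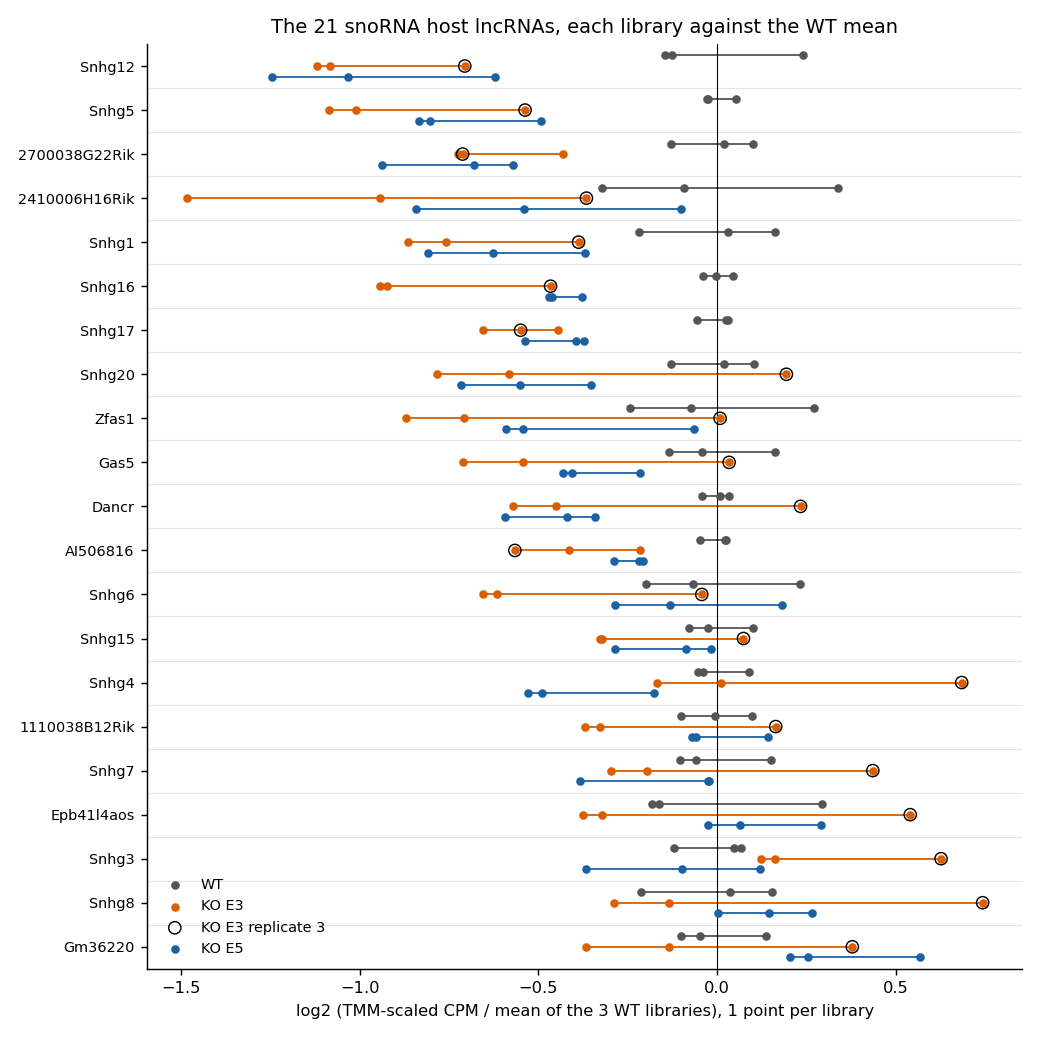
Log2 of the TMM-scaled CPM in each library over the mean of the 3 WT libraries, for the 21 lncRNAs that hold a snoRNA, ordered by the sum of their log2 fold changes in both clones. Points are libraries, lines join the lowest and highest of a line, and rings mark replicate 3 of KO E3. In Snhg12, Snhg5, 2700038G22Rik, Snhg1, Snhg16, Snhg17 and AI506816 all 6 KO libraries lie below all WT libraries, and in most hosts the ringed library is the highest of KO E3.

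Many snoRNA hosts are known to start with a cytosine followed by a pyrimidine tract, the 5′ terminal oligopyrimidine (TOP) that they share with mRNAs of ribosomal proteins. The starts of 7 hosts described above are shown for that reason. They are RefSeq sequences of 40 bases of the GRCm38.p6 build, from 15 bases before the annotated start to 25 from it on, on the strand of the gene, with a C and the 4 or more C or T bases after it in capitals where such a run began within 5 bases of the start. Snhg12 is at chr4:132308663-132308702 (plus strand), Gas5 at chr1:161035151-161035190 (plus, the second of 2 starts listed), AI506816 at chr5:23712643-23712682 (minus), 2700038G22Rik at chr5:23850582-23850621 (plus), 2410006H16Rik at chr11:62602862-62602901 (plus), Snhg5 at chr9:88522873-88522912 (minus) and Snhg16 at chr11:116671645-116671684 (plus).
Snhg12: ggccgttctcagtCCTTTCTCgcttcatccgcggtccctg
Gas5: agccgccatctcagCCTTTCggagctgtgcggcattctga
AI506816: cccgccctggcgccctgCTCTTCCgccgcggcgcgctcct
2700038G22Rik: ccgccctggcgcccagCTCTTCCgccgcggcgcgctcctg
2410006H16Rik: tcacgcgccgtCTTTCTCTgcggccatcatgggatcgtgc
Snhg5: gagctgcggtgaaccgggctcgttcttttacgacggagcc
Snhg16: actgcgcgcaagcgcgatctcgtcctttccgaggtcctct

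A run by this definition was found in 10 of the 18 snoRNA hosts with a RefSeq window (55.6%), in 16 of 70 other lncRNAs (22.9%) and in 21.2% of all 27025 genes. Snhg5 and Snhg16 have a pyrimidine stretch a few bases further on and do not meet the definition at the start listed. Snhg1 and Snhg17, which also fell and are not printed, had no run at any start listed. The first start listed for Gas5 had none either. The windows of AI506816 and 2700038G22Rik, which lie on opposite strands of the same chromosome, were identical at 38 of 39 bases of the printed stretch when shifted by a single base, and at 232 of 299 over the whole window (77.6%). Their canonical transcripts shared no stretch of 200 bases at 98% identity. Shorter shared stretches were not searched for, so whether reads of the pair can be told apart was not tested.

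Of the miRNA hosts, Mir17hg fell in both clones. Mir17hg (chromosome 14 from 115280311 to 115284159) is the host of the miR-17-92 cluster, a set of miRNAs known as oncogenic. It was at 12.0, 13.2 and 15.9 CPM in WT, 8.92, 9.0 and 9.85 in E3 and 10.7, 8.72 and 10.6 in E5, and its highest KO library was below its lowest WT library. Its log2 fold change was -0.56 in E3 (SE 0.14, adjusted p = 0.0103) and -0.45 in E5 (SE 0.14, adjusted p = 0.0387). Without replicate 3 of WT, the value in E3 was -0.45 (adjusted p = 0.0507). In E5 it did not pass the FDR without replicate 2 or 3 of WT or any 1 library of E5 (-0.51 to -0.33, adjusted p of 0.0662 to 0.162).

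The polyadenylated host is the unprocessed or spliced precursor, and the mature miRNAs were not measured. The 6 mature miRNAs for which the cluster is best known have the following RefSeq sequences, with the seed (bases 2 to 8), which pairs with target mRNAs, in capitals. These 6 arms hold 4 seeds, with miR-17 and miR-20a sharing one, miR-19a and miR-19b sharing another, and miR-18a and miR-92a each having their own. In the GRCm38.p6 build miR-17-5p is at chr14:115043684-115043706 and miR-92a-3p at chr14:115044476-115044496, on the plus strand.
mmu-miR-17-5p: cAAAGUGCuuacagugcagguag
mmu-miR-20a-5p: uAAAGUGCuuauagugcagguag
mmu-miR-18a-5p: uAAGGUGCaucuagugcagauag
mmu-miR-19a-3p: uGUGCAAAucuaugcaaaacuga
mmu-miR-19b-3p: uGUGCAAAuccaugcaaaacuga
mmu-miR-92a-3p: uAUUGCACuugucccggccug

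Mir142hg, the host of miR-142, which is known from blood cells, was at 14.2, 13.8 and 13.9 CPM in WT and at 7.11, 6.07 and 7.45 in E5. It was called lower in E5, with a log2 fold change of -1.02 (SE 0.31, adjusted p = 0.043), and the call was lost when any 1 WT or E5 library was left out (adjusted p of 0.0889 to 0.14), or with upper-quartile scaling (adjusted p = 0.0572) or a filter of 10 counts in every library (adjusted p = 0.05). In E3, replicates 1 and 2 were at 8.08 and 6.59 CPM and replicate 3 at 18.5. The value there was -0.34 (adjusted p = 0.44), and -0.93 without replicate 3 (adjusted p = 7.61e-05). Ptprc, the pan-leukocyte marker, had at most 2 counts in any library. Both mature arms of miR-142, which have unlike seeds, are printed to show what this host gives rise to, at chr11:87756867-87756887 and chr11:87756903-87756925 of GRCm38.p6, plus strand.
mmu-miR-142a-5p: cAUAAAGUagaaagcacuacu
mmu-miR-142a-3p: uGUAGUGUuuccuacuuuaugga

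Dleu2, the host of miR-15a and miR-16-1, was at 10.1, 9.97 and 8.82 CPM in WT, 13.2, 11.8 and 12.6 in E3 and 7.76, 5.88 and 8.38 in E5. It differed between the clones by -0.77 (SE 0.14, adjusted p = 0.00233), with WT between them (0.38 in E3 and -0.39 in E5, adjusted p = 0.0655 and 0.0766). Both values against WT passed without replicate 3 of E3 (0.37 and -0.39, adjusted p = 0.0479 and 0.0286), and that in E3 also without replicate 2 of E5 (adjusted p = 0.0426). The seeds of miR-15a-5p and miR-16-5p, AGCAGCA, are identical. Mir100hg (0.04 and -0.10) and Dnm3os, the host of miR-199a and miR-214 (-0.06 and -0.39), did not pass against WT, and neither did Gm49890, which holds Mir31 and was found from the annotation (-0.01 and -0.40). Gm49890 passed in E5 without replicate 2 or 3 of E3 (-0.41 and -0.40, adjusted p = 0.0215 and 0.0137), and Dnm3os was lower in E5 than in E3 without replicate 3 of E3 (-0.44, adjusted p = 0.045). Of a list of 12 miRNA hosts, the 5 among the 158 were Mir17hg, Mir142hg, Dleu2, Mir100hg and Dnm3os, of which 0 rose and 1 fell in E3, and 0 rose and 2 fell in E5, and 0 were higher and 1 lower in E5 than in E3. Over all genes tested 15.7% rose and 14.7% fell in E3, 8.96% and 11.7% in E5, and 14.7% were higher and 17.2% lower in E5 than in E3. These counts change without replicate 3 of E3, where Dleu2, Mir142hg and Dnm3os passed as given.

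Of 28 other lncRNAs with a described function, 10 were among the 158. In E3, 2 rose and 1 fell, and in E5, 1 rose and 0 fell, with medians of 0.25 and 0.21, and between the clones 3 were higher in E5 and 1 lower. The shares of all genes tested that rose and fell were 15.7% and 14.7% in E3, 8.96% and 11.7% in E5, and 14.7% and 17.2% between the clones. Beside Morrbid and Pvt1, Crnde, a lncRNA raised in many tumours, rose in E3, from 4.71, 3.83 and 4.50 CPM to 6.14, 6.26 and 7.92 (log2 fold change 0.64, SE 0.17, adjusted p = 0.0194). The value was not past the FDR without replicate 2 or 3 of WT (0.55 and 0.66, adjusted p = 0.0885 and 0.0557), and in E5 it was 0.42 (adjusted p = 0.12).

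Neat1 was at 637, 592 and 657 CPM in WT, 626, 406 and 538 in E3 and 793, 712 and 784 in E5, the last all above the others. It differed between the clones by 0.55 (SE 0.14, adjusted p = 0.016; 0.0529 and 0.0515 without replicate 1 or 3 of E5) and from WT by -0.26 in E3 and 0.28 in E5 (adjusted p = 0.196 and 0.206; -0.42 and 0.0483 in E3 without replicate 1 of E3). Malat1, its neighbour on chromosome 19 and another abundant nuclear RNA, was at 117 to 177 CPM in all libraries but replicate 3 of E3, which was at 254, and did not pass in either clone (0.41 and 0.09).

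Norad, which binds Pumilio proteins and guards chromosome number, was at 274 to 279 CPM in WT, 318 to 335 in E3 and 250 to 256 in E5. The 3 lines did not overlap, and the clones differed by -0.36 (SE 0.08, adjusted p = 0.00647), with 0.23 in E3 and -0.13 in E5 against WT (adjusted p = 0.0503 and 0.295). Trp53cor1 (lincRNA-p21), a p53 target beside Cdkn1a, was at 8.59 to 9.05 CPM in WT, 4.44 to 11.1 in E3 and 11.4 to 17.2 in E5. It differed between the clones by 0.88 (SE 0.27, adjusted p = 0.033). The difference was not past the FDR without any 1 WT library (adjusted p of 0.0513 to 0.0522) or replicate 2 or 3 of E5 (0.0993 and 0.112). Trp53cor1 passed a size of 1 without replicate 1 of E3 or of E5 (1.17 and 1.04). Its neighbour Cdkn1a, the p21 cell cycle inhibitor, rose by 0.28 in E3 and by 0.41 in E5 (adjusted p = 0.037 and 0.00931). Lockd, beside Cdkn1b, had 0.48 and 0.56 (adjusted p = 0.0682 and 0.0524), and Oip5os1 0.25 and -0.09. Without replicate 3 of E3, Norad (0.23, adjusted p = 0.00872) and Oip5os1 (0.49, adjusted p = 0.00116) passed in E3, and Trp53cor1 (0.75, adjusted p = 0.00127), Lockd (0.56, adjusted p = 0.000593) and Crnde (0.43, adjusted p = 0.0366) passed in E5. Lockd also passed without replicate 1 of E3, in both clones (adjusted p = 0.0307 and 0.0381), and without replicate 2 of E3 in E5 (adjusted p = 0.0487).

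The 30 divergent lncRNAs and their coding genes start from 1 region on opposite strands, an arrangement often called a bidirectional promoter. In E3, 5 of the 30 lncRNAs rose and 5 fell, beside 15.7% and 14.7% of all genes tested, in E5 2 rose and 6 fell, beside 8.96% and 11.7%, and between the clones 1 was higher in E5 and 6 lower, beside 14.7% and 17.2%. In E3, 10 of the 30 lncRNAs and 6 of the 30 coding genes thus passed the FDR, with both passing in 3 pairs, 2 in the same direction. In E5 the numbers were 8 and 3, with both in 1 pair, in the same direction, and between the clones 7 and 5, with both in 1 pair, in the same direction. Across the 30 pairs, the log2 fold changes of lncRNA and coding gene had a Pearson correlation of 0.219 in E3, 0.205 in E5 and 0.394 between the clones. These are descriptions across genes measured in the same libraries.

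Cep83os and Cep83, which encodes a centriole protein, start 54 bases apart and fell together in E3. Cep83os was at 12.4 to 12.7 CPM in WT, 9.99, 6.15 and 5.76 in E3 and 11.6, 15.5 and 19.6 in E5, and Cep83 at 70.0 to 73.0, 37.7 to 50.7 and 78.3 to 81.1. In E3 the log2 fold changes were -0.78 and -0.66 (adjusted p = 0.0263 and 0.00155), and between the clones 1.09 and 0.82 (adjusted p = 0.005 and 0.000372). For Cep83os, the value in E3 was not past the FDR without any 1 WT library or without replicate 2 of E3 (-0.79 to -0.67, adjusted p of 0.0663 to 0.071) and was called, at -1.08, without replicate 1 of E3. Between the clones it was 0.98, 0.95 and 0.89 without replicate 2 or 3 of E3 or replicate 3 of E5.

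Snhg1 starts 68 bases from Slc3a2, which encodes the heavy chain of amino acid transporters. Slc3a2 fell by 1.22 on the log2 scale in E3 (adjusted p = 0.000975) and had -0.39 in E5 (adjusted p = 0.174), with a difference between the clones of 0.83 (adjusted p = 0.00719), beside 0.07 for Snhg1 (adjusted p = 0.784). D330041H03Rik, like the pair after it named for its count and after its values were seen, fell by 0.98 in E3 (by 1.10 without replicate 2 of E3) where Rnps1, its splicing factor neighbour, rose by 0.32 (adjusted p = 0.0492). D930048N14Rik and N4bp3 fell together in E5, by 0.65 and 0.50.

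Ptgs2, which encodes the prostaglandin synthase COX-2, fell in both clones, and its divergent lncRNA Ptgs2os did not pass in either with all libraries. Ptgs2 fell from 197 to 215 CPM in WT to 39.5 to 62.1 in E3 and 59.4 to 64.6 in E5, by 2.02 and 1.72 on the log2 scale (adjusted p = 1.46e-05 and 2.16e-05). Ptgs2os, 214 bases away on the other strand, was at 3.91 to 5.21 CPM in WT, 4.002 to 6.28 in E3 and 4.70 to 5.24 in E5, and its log2 fold changes were 0.24 and 0.11 (adjusted p = 0.367 and 0.736). Without replicate 3 of E3 it rose in E3, by 0.42 (adjusted p = 0.0296). Its libraries overlapped between all 3 lines. The difference between the 2 genes was not tested.

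**Figure D5:**
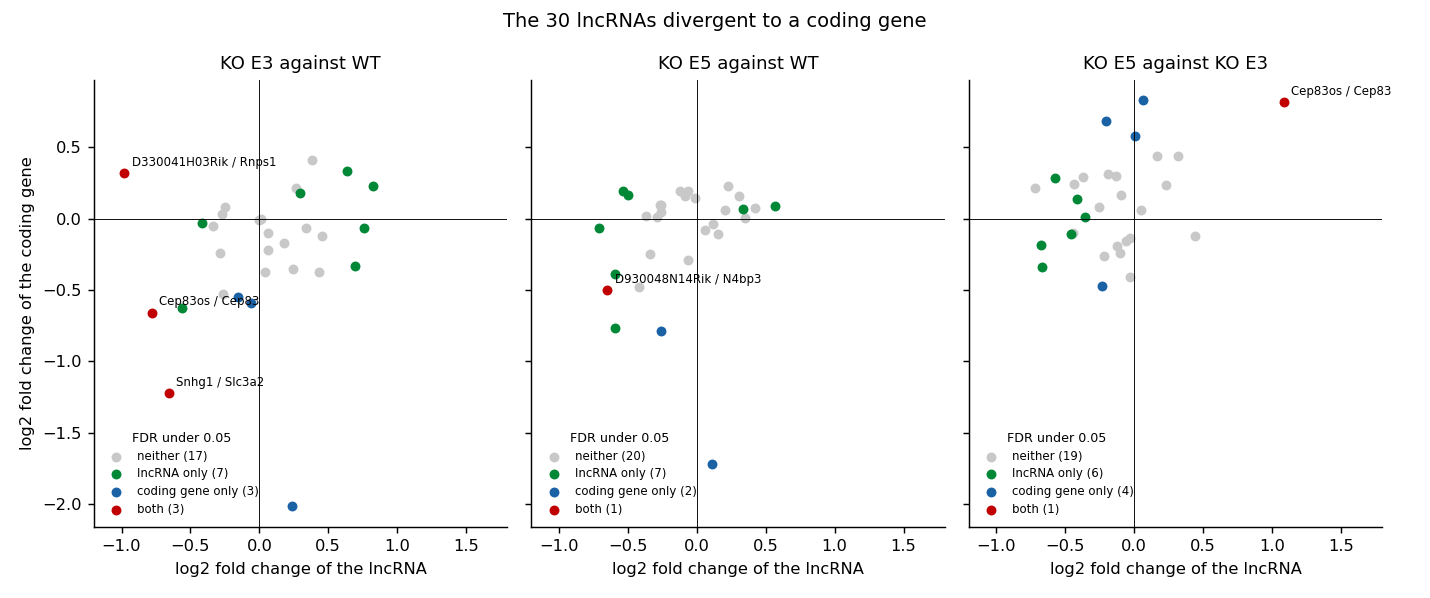
Log2 fold change of the coding gene against that of the lncRNA for the 30 divergent pairs in each comparison, with 1 point per pair and colours for which gene passed an FDR of 0.05. Labelled pairs passed in both genes. Pairs with both genes past the FDR number 3 in KO E3, 1 in KO E5 and 1 between the clones, and the point lowest on the vertical axis in both panels against WT is Ptgs2os with Ptgs2.

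Antisense lncRNAs were set beside the nearest coding start in 39 pairs. That start is not always the start of the gene they overlap. Both genes passed in 3 pairs in E3 (1 in the same direction), in 2 in E5 (both in the same direction) and in 7 between the clones (5 in the same direction). The Pearson correlations of their log2 fold changes were 0.173, 0.487 and 0.238. Reads of these pairs may be shared where the genes overlap. The pairs in E3, named for their count and after their values were seen, included Gm56719 with Slc38a1, described above. The others were Trmt61b (0.44) with Wdr43 (-0.70) and 4933412E12Rik (0.49) with Rab3ip (-0.33). Trmt61b overlaps Spdya, not Wdr43, whose start lies 17097 bases away. Trmt61b did not pass without replicate 1 or 2 of WT (adjusted p = 0.0741 and 0.129), nor 4933412E12Rik without replicate 3 of WT (adjusted p = 0.0578). Those in E5 both lie in Hox clusters, which encode transcription factors that set position along the body axis. Hoxb3os was at 4.55, 3.43 and 4.07 CPM in WT, 5.16, 4.61 and 8.36 in E3 and 7.46, 7.27 and 7.75 in E5, with WT below all others. It rose in E5 by 0.90 and Hoxb2, whose start is 3060 bases away, by 0.67 (adjusted p = 0.0134 and 0.0299), though Hoxb3os did not pass without replicate 2 of WT (0.79, adjusted p = 0.0661). Hoxa11os and Hoxa11, 1417 bases apart, rose in E5 by 0.69 and 0.51 (adjusted p = 0.00972 and 0.0198).

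All 6 KO libraries were above all 3 WT libraries in 16 of the 158 lncRNAs (10.1%), beside 9.55% of all genes tested, and below them in 22 (13.9%), against 11.6%. The 16 included D17H6S56E-5, Morrbid, Gm13373, Crnde, Lockd, AU020206 and Hoxb3os. The 22 included Snhg1, Snhg5, Snhg12, Snhg16, Snhg17, AI506816, 2700038G22Rik and Mir17hg. D17H6S56E-5, the most abundant of the 158, was at 800, 794 and 852 CPM in WT, 1462, 1270 and 1399 in E3 and 1082, 1070 and 941 in E5. It rose by 0.76 in E3 (SE 0.10, adjusted p = 0.000426) and by 0.34 in E5 (SE 0.10, adjusted p = 0.0382), the second lost without any 1 WT library or replicate 1 or 2 of E5 (0.30 to 0.37, adjusted p of 0.0859 to 0.154). Its divergent partner Vars1, which encodes a tRNA synthetase, had -0.07 and 0.07.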

How the data were processed

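Polyadenylated RNA of 3 WT, 3 KO E3 and 3 KO E5 cultures was sequenced from directional libraries. According to the methods and processing notes, the authors used FastQC and Trimmomatic on the reads before alignment by STAR (GRCm39). The deposited values are raw counts of reads per gene. How strand was treated, which program counted and which gene annotation was used are not given in the sources used here. Counts were analysed as deposited in R 4.3.3 with edgeR 4.0.16. Genes were kept by filterByExpr (minimum count 10, total 15), which left 14593, scaled by TMM and fitted in 1 quasi-likelihood model of the 3 lines, with p-values adjusted by Benjamini-Hochberg over all genes. The common biological coefficient of variation was 14.8%. DESeq2 1.42.0 was an alternative, as were other scalings, filters, sets, a replicate block and leaving out each library. The test was checked on simulated data.

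The 158 members and the gene lists were chosen with earlier results of these data known. Named genes were the members of 3 lists (hosts of snoRNAs, hosts of miRNAs, other lncRNAs with a described function), up to 8 called members in each direction per comparison, members called in both clones, the 5 with the highest level, those next to the threshold, coding partners of these, and Cd47. Genes outside this rule are marked in the text as found from the annotation or named after their values were seen, except in the counts of non-overlapping libraries. Positions in the files are of GRCm39, arrangement and lengths were taken from GENCODE M39, and sequences from RefSeq tables of GRCm38.p6, in which 88 of the 158 had a window. Their coordinates were not converted.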

Additional observations from a re-analysis of the deposited data

Results flagged for a closer look

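The 8 lncRNAs called between the clones, in a test of that difference itself, were singled out because the 2 clones, both without CD47, differed from each other. The log2 difference of E5 from E3 was -1.72 for Bc1 (adjusted p = 0.00101), -1.62 for Gm56906 (adjusted p = 6.36e-06) and -1.16 for 5830444B04Rik (adjusted p = 0.00072). It was 1.05 for ENSMUSG00000121485 (adjusted p = 4.36e-05), 1.09 for Cep83os (adjusted p = 0.005), 1.10 for Gm32856 (adjusted p = 0.00156), 1.28 for Ppp1r36dn (adjusted p = 0.000111) and 1.28 for Pvt1 (adjusted p = 4.04e-06). Each adjusted p is from edgeR. For Bc1, Gm56906, Ppp1r36dn, ENSMUSG00000121485 and Pvt1 the call held when any 1 library was left out.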

How the results depend on the processing

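The number of lncRNAs called in E3 (9) was 5 with a mean of at least 10 CPM, 28 with at least 2 CPM, 5 with at least 5 CPM in every line and 4 among lncRNAs that overlap no other gene. In E5 (5) it was 3, 16, 3 and 3, and between the clones (8) it was 29 with at least 2 CPM and 4 without overlap. The number past the FDR in E3 (49) was 28 with at least 10 CPM, 103 with at least 2 CPM and 21 without overlap, in E5 (35) it was 20, 63 and 21, and between the clones (42) it was 24, 95 and 17. These sets held 82, 344, 132 and 64 lncRNAs in place of 158. Fitting only the 2 lines compared gave 81 past the FDR in E5 and 26 between the clones. Leaving out 1 library gave 8 to 9 called in E3, 3 to 5 in E5 and 5 to 11 between the clones, and 31 to 76, 16 to 73 and 28 to 68 past the FDR, with the highest number past the FDR each time without replicate 3 of E3. With upper-quartile scaling the median log2 fold change was 0.065 in E3 and -0.11 between the clones. Snhg8 between the clones (-0.04) was 0.36 without replicate 3 of E3, a change of direction, and -0.23 without replicate 2. The cause was not tested. Of 2352 values of the 49 named lncRNAs under all settings, 2103 kept direction and stayed on the same side of the FDR threshold. In the same direction, 92 no longer passed the FDR and 80 passed it only then. A further 76 changed direction without passing the FDR in either fit, and 1 changed direction with a value past it.

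Same-numbered libraries correlated between -0.172 and 0.0472 in their deviations, so the replicate numbers were not taken as pairs. With a replicate block, 8, 5 and 8 lncRNAs were called and 43, 26 and 34 passed the FDR. Depth limits the precision of lncRNAs near 5 CPM, and 3 libraries a line limit all.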
